A study of Mus musculus with 6 samples.

Results

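The type I interferon-stimulated genes examined here are 34 genes of a list set by name, and chosen with earlier results of these data known. All 34 were found by symbol among the 16729 genes that the authors counted in brain tumors of the mouse, and all 34 passed the filter on low counts. RNA-seq was performed on 6 tumors formed by mG7080 cells, a gliomasphere culture from a genetic mouse model of glioma. The hosts, C57BL/6 mice that received the cells in the brain, were either wild type (WT, 3 tumors) or Esm1 knockout (Esm1 KO, 3 tumors). Hosts were female and 6 to 8 weeks old by the study's methods. Esm1 encodes Endocan, a proteoglycan secreted by endothelial cells, and only the hosts carried its deletion, since the mG7080 cells were the same in both groups. Each library therefore held RNA of tumor cells and host cells together, in a single cell line and a single deletion line. The comparison asks how the expression of the tumor differs when the host cannot make Endocan.

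Interferons alpha and beta bind the receptor made of Ifnar1 and Ifnar2, and the kinases Jak1 and Tyk2 then phosphorylate STAT proteins, Stat2 among them. With Irf9 these form a factor that binds the interferon-stimulated response element in promoters and switches on a large set of antiviral genes. Many of these genes respond to interferon gamma as well, and in brain tumors both tumor cells and microglia or macrophages can express them.

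Esm1 was checked first. It had 25, 21 and 82 reads in WT 1, WT 2 and WT 3, 1 read in KO 1, 24 reads in KO 2 and 4 reads in KO 3. The library labelled KO 2 was therefore at the level of WT 1 and WT 2. Reads from mG7080 cells and from host cells cannot be told apart. Total counts were between 17632070 and 22241832 per library, and 1 read was worth between 0.0445 and 0.0570 CPM (reads of a gene relative to the library total, scaled with TMM factors). Over all genes, the first principal component held 86.9% of the variance. Fold changes and counts are given with and without the library labelled KO 2. The labels do not state what separates tumors of a group beyond their number, so p-values measure the spread between these samples.

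In tumors of WT hosts the median of the 34 genes lay well above the middle of the transcriptome, though the lowest of them lay under it. Compared per length, in the FPKM that the authors deposited, the median of the WT means was 25.1 over the 34 genes and 10.03 over all genes of the table. Bst2, which encodes tetherin, a protein that holds budding virus at the cell surface, had the highest FPKM, 205 ± 77.5 (mean ± SD, n = 3 WT tumors). It was followed by the secreted glycoprotein gene Lgals3bp (121 ± 20.7 FPKM), the ubiquitin-like Isg15 (96.1 ± 32.8 FPKM), Ifit3 (78.1 ± 21.4 FPKM) and Oasl2 (67.6 ± 19.2 FPKM). The SDs of neighbouring genes in this order overlapped. Lowest were Mx1 (6.55 ± 3.29 FPKM), the ubiquitin ligase gene Trim25 (4.36 ± 0.545 FPKM) and Oas3 (2.99 ± 1.22 FPKM).

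Several of these genes lie beside each other in the genome (GRCm38, GENCODE vM21). Ifit2, Ifit3 and Ifit1 occupy chr19:34550694-34650009, and Oas2, Oas3 and Oas1a occupy chr5:120730333-120907521. Oasl2 and Oasl1 lie at chr5:114896936-114937915. Mx1 and Mx2 lie at chr16:97447035-97560900. Parp14, Dtx3l and Parp9 lie at chr16:35832874-35972605, and Rsad2 and Cmpk2 at chr12:26442746-26479837. Exons of Parp9 and Dtx3l overlap on opposite strands, and counting by strand was not stated, so reads in the 458 exonic bases that they share cannot be assigned to either gene. Reads of Oas1a, Ifit3 and Trim30a could also be shared with close paralogs.

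The promoters were also read for sequence features that the choice of genes did not use. RefSeq windows (GRCm38.p6) from 250 bases before to 50 bases after the start site were matched for 25 of the 34 genes. The core of the response element, searched as GAAANNGAAA on both strands, was present in 12 of these 25 genes (48%), against 3.99% of the 27025 genes with such a window and 3.70% of the 11964 that were also tested here. The gamma-activated site, an element of the interferon gamma response, searched as TTCNNNGAA on both strands, was present in 6 of the 25 (24%), against 9.55% and 8.42%. The stretches below are those of 7 genes whose matches lie before the start site, shown because they span the range of changes described further on. They are written along the strand of each gene, and capitals mark the matches, which overlap in Isg15, Oas1a and Bst2.
Isg15, chr4:156200850-156200921, minus strand: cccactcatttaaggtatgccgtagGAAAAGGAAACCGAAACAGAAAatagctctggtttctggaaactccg
Ifit1, chr19:34640760-34640838, plus strand: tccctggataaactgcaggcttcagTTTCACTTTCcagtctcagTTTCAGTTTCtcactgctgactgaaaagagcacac
Ifit3, chr19:34583348-34583441, plus strand: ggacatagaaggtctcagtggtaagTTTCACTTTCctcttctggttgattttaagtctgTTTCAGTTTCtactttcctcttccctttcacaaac
Oas1a, chr5:120907526-120907570, minus strand: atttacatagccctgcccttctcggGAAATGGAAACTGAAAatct
Rsad2, chr12:26456538-26456597, minus strand: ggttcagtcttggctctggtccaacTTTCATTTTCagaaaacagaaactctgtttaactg
Bst2, chr8:71537562-71537627, minus strand: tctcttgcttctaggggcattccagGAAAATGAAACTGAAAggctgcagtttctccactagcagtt
Stat2, chr10:128270251-128270310, plus strand: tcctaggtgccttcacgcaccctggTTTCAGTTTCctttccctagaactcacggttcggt
Isg15 held 3 matches, and Ifit1, Ifit3, Oas1a and Bst2 held 2 each. The match of Stat2 began at position -222 from the start site, farther out than any other, and that of Oas1a nearest the start ended at position -5. A match is a run of letters and not a measured binding site.

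**Figure D1:**
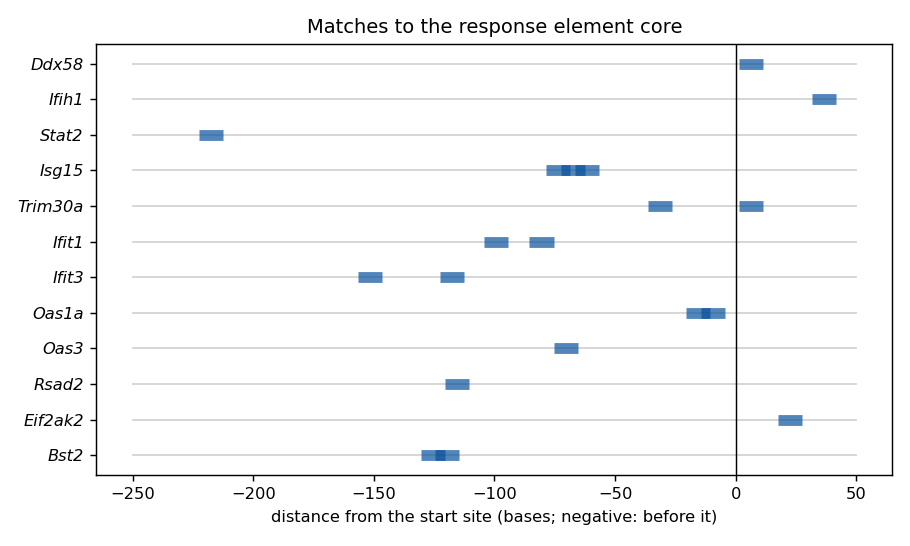
Position of each match to the response element core in the 12 genes that hold one, with distance from the start site in bases on the x axis (negative before it) and 1 gene per row. Grey lines show the window searched, blue bars show matches and darker blue shows overlapping matches; 9 genes have a match before the start site and 4 have one after it, Trim30a having both over its annotated start sites.

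All 34 genes were lower on average in tumors of Esm1 KO hosts, but none passed the test over the 6 libraries. Fold changes of KO over WT, on the log2 scale, had a median of -1.58 over the 34 genes, against -0.02 over all 16166 genes tested, and ranged from -2.31 for Ifi44 to -0.42 for Trim25. By edgeR's quasi-likelihood test with adjustment after Benjamini-Hochberg, 0 of the 34 were called at an adjusted p under 0.05, and 0% of all genes were called in either direction. The smallest adjusted p among the 34 by that test was 0.185, for Oas2. At an unadjusted p under 0.05, 0 of the 34 were lower in KO, against 11.9% of all genes. Over the same 6 libraries, edgeR's exact test called 0 of the 34 lower, against 0.285% of all genes, and limma-voom 0 of the 34, against 0%. DESeq2 called 0 of the 29 to which it gave an adjusted p, against 2.8% of all genes, and gave none to Ifit1, Oasl2, Parp14, Ifi35 and Xaf1. At an unadjusted p under 0.05, the exact test found 9 lower against 11.7% of all genes, limma-voom 25 against 17% and DESeq2 11 of the 29 against 14.9%. In bulk tumor RNA, fewer cells of a type and less RNA per cell cannot be told apart.

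The libraries behind this average were not alike. KO 1 and KO 3 lay under every WT library for 34 of the 34 genes, a separation seen in 40.4% of all genes, and without the library labelled KO 2 all 34 genes passed. In that fit, of 3 WT and 2 KO libraries, 34 of the 34 fell by edgeR's quasi-likelihood test, against 28.3% of 16279 genes called lower, and 30 of the 34 fell more than 4-fold, against 7.48%. The median log2 fold change was then -3.45, against -0.02 over all genes, with a range from -4.85 for Oas1a to -0.78 for Trim25. Adjusted p by edgeR with Benjamini-Hochberg ran from 0.00798 to 0.0176, the latter for Trim25. With the same libraries, and chosen after seeing the data, DESeq2, edgeR's exact test and limma-voom each called 34 of the 34 lower, against 28.4%, 28.5% and 27.9% of all genes. The 4 genes that fell less than 4-fold by the quasi-likelihood test were Herc6, Stat2, Cmpk2 and Trim25. With WT 1, WT 2, KO 1 and KO 3 alone, 33 of the 34 fell, against 13.9% of all genes, the exception being Trim25.

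The library labelled KO 2 stood among the WT tumors for most of these genes. On the first principal component over all genes, KO 1 and KO 3 lay at 77.2 and 98.9, and WT tumors between -76.8 and -12.8. The library labelled KO 2 lay at -27.8, also among the WT tumors. It exceeded both KO 1 and KO 3 for 34 of the 34 genes, was inside the span of the WT tumors for 23, below it for 9 and above it for 2 (Stat2 and Trim25). All 3 libraries labelled KO thus lay under all WT libraries for 9 of the 34 genes, namely Ddx58, Usp18, Isg15, Oas2, Oasl2, Mx2, Rsad2, Ifi44 and Lgals3bp, against 14.6% of all genes. The gap between the library labelled KO 2 and WT 1 was very small for some of these. Relative to the value in WT 1, it ran from 10.372 and 10.373 CPM for Mx2 to 14.4 and 19.6 CPM for Oas2. Among WT tumors, WT 1 was the lowest for 34 of the 34 genes, and WT 2 was the highest for 31. KO 3 was lower than KO 1 for 33 of the 34, the exception being Herc6. Over all genes, the first principal component set the libraries in the order WT 2, WT 3, KO 2, WT 1, KO 1 and KO 3. Except for the 9 genes named above, the share of all genes was not computed for the counts of this paragraph.

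**Figure D2:**
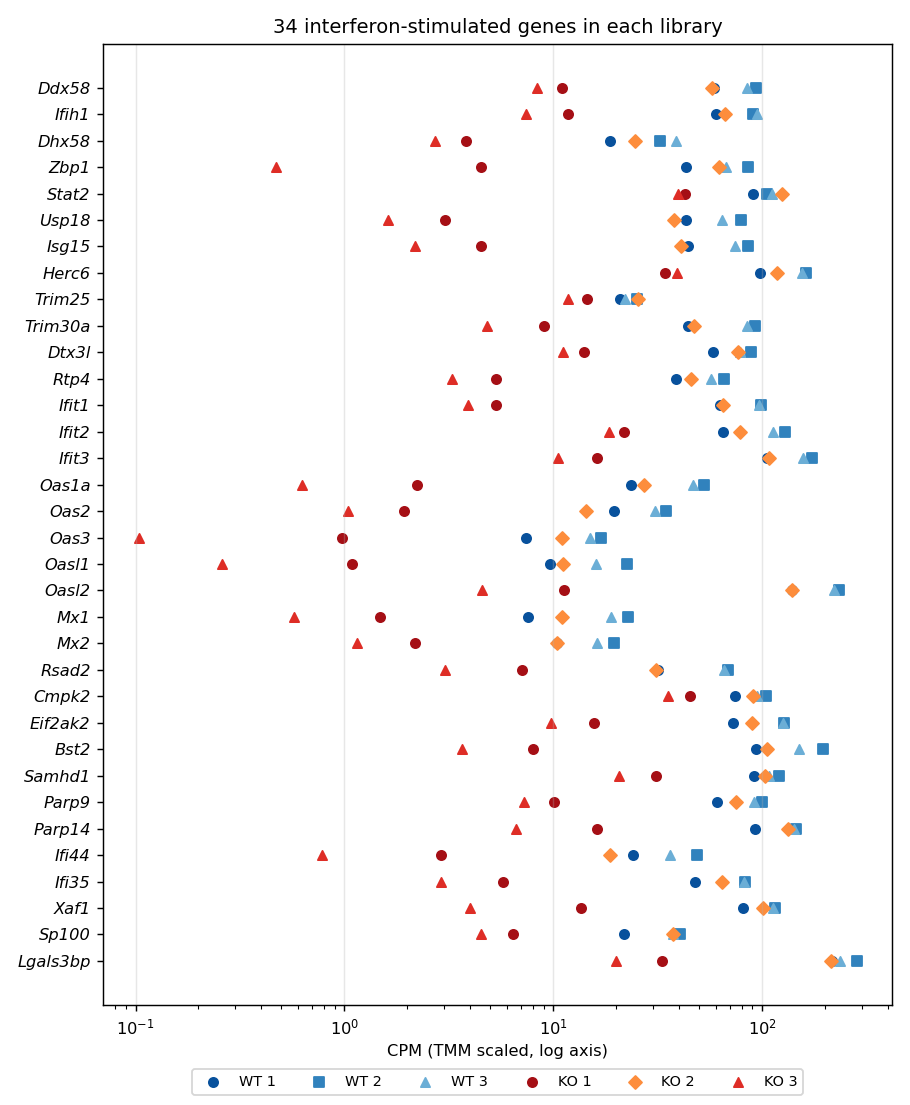
CPM of each of the 34 genes in each library, on a log axis; WT tumors are blue and KO tumors red or orange, with 1 point per library. KO 1 and KO 3 lie to the left of every WT library for all 34 genes, while the library labelled KO 2 lies within the WT range for 23 of them.

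The IFIT genes encode proteins with tetratricopeptide repeats that bind viral RNA or translation factors. Ifit1, whose product binds RNA that lacks the cap methylation of host messages, was at 62.7, 99.1 and 96.5 CPM in WT 1 to 3, and at 5.31, 65.2 and 3.90 CPM in KO 1 to 3. KO 1 and KO 3 were thus far under the WT tumors, and the library labelled KO 2 lay just above WT 1. The log2 fold change of Ifit1 was -1.82 ± 1.09 (standard error, as for every log2 fold change here) over 6 libraries (adjusted p 0.259 by edgeR with Benjamini-Hochberg) and -4.22 ± 0.304 without the library labelled KO 2 (adjusted p 0.00798 by edgeR with Benjamini-Hochberg). Ifit3 was at 106, 174 and 157 CPM in WT tumors and at 16.1, 108 and 10.6 CPM in KO 1 to 3. Ifit2 was at 65.1, 128 and 113 CPM in WT tumors and at 21.8, 78.5 and 18.5 CPM in KO 1 to 3. Its log2 fold change without the library labelled KO 2 was the least negative of this family, -2.33 ± 0.326, against -3.45 ± 0.324 for its neighbour Ifit3. Over all 6 libraries these values were -1.39 ± 0.620 and -1.72 ± 0.895.

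Genes of the 2'-5'-oligoadenylate synthetase (OAS) family had the most negative median of the families once the library labelled KO 2 was left out. Some, but not all, products of this family sense double-stranded RNA and activate RNase L. The median log2 fold change of the family was then -4.62 over 5 genes, and -1.98 over all 6 libraries. Oas1a was at 23.5, 52.8 and 46.5 CPM in WT 1 to 3, and at 2.22, 27.2 and 0.625 CPM in KO 1 to 3. Oas2 was at 19.6, 34.6 and 30.7 CPM in WT tumors and at 1.94, 14.4 and 1.04 CPM in KO tumors, so that the library labelled KO 2, like KO 1 and KO 3, lay under all WT tumors. Oas2 had the smallest p of the 34 genes over all 6 libraries, with a log2 fold change of -2.30 ± 0.974, and stood at -4.24 ± 0.414 without the library labelled KO 2. Oas3 rested on 17 reads in KO 1 and 2 reads in KO 3, against 156, 329 and 305 reads in WT tumors and 247 in the library labelled KO 2, and Oasl1 on 19 and 5 reads in KO 1 and KO 3. Oasl2, a relative with ubiquitin-like domains, was at 11.2 CPM in KO 1, 139 CPM in the library labelled KO 2 and 4.58 CPM in KO 3, where the WT tumors had 139.9, 234 and 221 CPM.

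Signalling and its brake behaved unequally. Stat2, the subunit that gives the interferon factor its activation domain, was at 90.5, 106 and 111 CPM in WT tumors and at 42.9, 125 and 39.5 CPM in KO 1 to 3. Its value in the library labelled KO 2 was the highest of the 6. Usp18, a protease that removes Isg15 from proteins and blocks the Ifnar2 receptor chain, was at 43.4, 79.4 and 64.5 CPM in WT tumors and at 3.02, 37.9 and 1.61 CPM in KO tumors. For Usp18 the library labelled KO 2, like KO 1 and KO 3, lay under the WT tumors. Without the library labelled KO 2, the log2 fold change was -1.31 ± 0.148 for Stat2 and -4.75 ± 0.419 for Usp18, and with it -0.59 ± 0.467 and -2.16 ± 1.16.

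The ISG15 and ubiquitin genes also spanned a wide range. Isg15, a ubiquitin-like protein that is attached to other proteins and also secreted, was at 44.1, 85.2 and 74.0 CPM in WT tumors and at 4.51, 40.9 and 2.19 CPM in KO 1 to 3, with no overlap between the groups. Herc6, the ligase that attaches Isg15 in the mouse, was at 98.2, 162 and 156 CPM in WT tumors and at 34.3, 118 and 39.0 CPM in KO tumors. Trim25, a ubiquitin ligase known for acting on the sensor RIG-I, varied least, with 21.0, 25.1 and 22.1 CPM in WT tumors and 14.5, 25.5 and 11.8 CPM in KO tumors. Without the library labelled KO 2 the log2 fold changes were -4.34 ± 0.462 for Isg15, -1.91 ± 0.260 for Herc6 and -0.78 ± 0.176 for Trim25, and with it -2.12 ± 1.07, -1.14 ± 0.527 and -0.42 ± 0.310. Trim30a and Dtx3l, whose products are also ligases, had values of -3.41 ± 0.457 and -2.57 ± 0.240 without that library, and of -1.87 ± 0.869 and -1.16 ± 0.760 with it.

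Sensors of foreign or misplaced nucleic acid had like fold changes over all 6 libraries, and Zbp1 stood apart from the other sensors only without the library labelled KO 2. The difference between these genes was not tested. Ddx58 (RIG-I), Ifih1 (MDA5) and Dhx58 (LGP2), the helicases that detect RNA in the cytosol, had log2 fold changes of -3.02 ± 0.274, -3.09 ± 0.314 and -3.20 ± 0.394 without the library labelled KO 2, and of -1.64 ± 0.766, -1.54 ± 0.828 and -1.55 ± 0.874 with it. Zbp1, a sensor of Z-form nucleic acid that can trigger cell death, was at 43.3, 85.6 and 67.3 CPM in WT tumors, 4.51 CPM in KO 1, 62.1 CPM in the library labelled KO 2 and 0.469 CPM in KO 3. The value in KO 3 stands for 9 reads. Its log2 fold change was -4.73 ± 0.856 without the library labelled KO 2 and -1.57 ± 1.41 with it.

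Of the other antiviral effectors, Rsad2, which encodes viperin, an enzyme that makes a chain-terminating nucleotide, was at 31.6, 68.8 and 65.4 CPM in WT tumors and at 7.07, 31.0 and 3.02 CPM in KO 1 to 3. Cmpk2, the neighbouring gene, which encodes a nucleotide kinase, was at 74.4, 105 and 94.1 CPM in WT tumors and at 45.2, 90.5 and 35.3 CPM in KO 1 to 3. This adjacent pair therefore differed in size of change, with log2 fold changes of -3.45 ± 0.531 for Rsad2 and -1.17 ± 0.204 for Cmpk2 without the library labelled KO 2, and of -2.03 ± 0.863 and -0.70 ± 0.373 with it. Bst2 was at 93.3, 195 and 150.2 CPM in WT 1 to 3 and at 7.99, 105 and 3.64 CPM in KO 1 to 3, and its log2 fold change was -4.65 ± 0.512 without the library labelled KO 2 and -1.93 ± 1.22 with it. The double-stranded RNA kinase gene Eif2ak2 (PKR) and Samhd1, which encodes an enzyme that degrades deoxynucleotides, had values of -3.09 ± 0.363 and -2.04 ± 0.237 without that library, and of -1.53 ± 0.848 and -1.06 ± 0.599 with it.

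The dynamin-like GTPase genes Mx1 and Mx2 were expressed at low level. Mx1 was at 7.57, 22.7 and 18.9 CPM in WT tumors and at 1.48, 11.0 and 0.573 CPM in KO 1 to 3. Mx2, which the annotation lists as a polymorphic pseudogene, was at 10.4, 19.5 and 16.3 CPM in WT tumors and at 2.17, 10.4 and 1.15 CPM in KO 1 to 3, with the library labelled KO 2 just under WT 1. In most laboratory strains, C57BL/6 among them, both genes carry defective alleles, so these reads are transcripts and no measure of a working protein. The ADP-ribosyltransferase genes Parp9 and Parp14 had log2 fold changes of -3.28 ± 0.301 and -3.47 ± 0.457 without the library labelled KO 2, and of -1.48 ± 0.908 and -1.31 ± 1.05 with it. The remaining 6 genes (Rtp4, Ifi44, Ifi35, Xaf1, Sp100 and Lgals3bp) had values between -4.31 and -2.61 without it, and between -2.31 and -1.07 with it. Of these Ifi44 had the most negative log2 fold change of all 34 over the 6 libraries, with 24.2, 48.7 and 36.4 CPM in WT tumors and 2.91, 18.7 and 0.781 CPM in KO tumors.

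**Figure D3:**
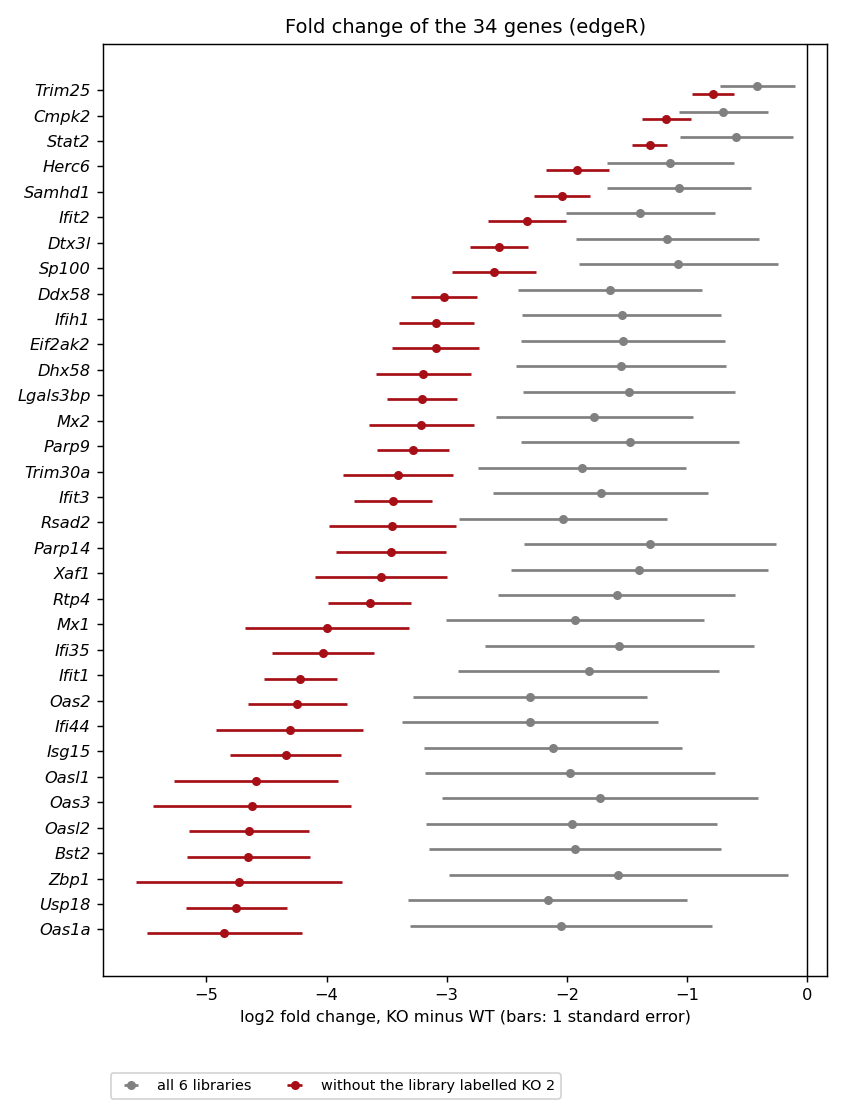
Log2 fold change of KO over WT for each of the 34 genes on the x axis, from edgeR, with bars of 1 standard error; grey points use all 6 libraries and red points leave out the library labelled KO 2. All 34 genes lie below 0 in both fits, and the red points run from -0.78 for Trim25 to -4.85 for Oas1a.

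The rest of the pathway was read from lists of its other genes. Of 11 interferon ligand genes, only Ifng is in the table, with 30, 30 and 27 reads in WT 1 to 3, 6 in KO 1, 48 in the library labelled KO 2 and 0 in KO 3. The receptor chain Ifnar1 lay between 63.8 and 78.7 CPM in all 6 tumors, with a log2 fold change of -0.14 ± 0.136 over 6 libraries and -0.16 ± 0.139 without the library labelled KO 2. In the latter fit Ifnar2 fell (-0.87 ± 0.143), Tyk2 was at -0.15 ± 0.163 and Jak1 rose (0.67 ± 0.202), and over all 6 libraries they were at -0.50 ± 0.300, -0.03 ± 0.191 and 0.46 ± 0.253. Irf9 fell by 2.54 and Irf7, which sustains interferon production, by 4.97 on the log2 scale without the library labelled KO 2, and over all 6 libraries they were at -1.41 and -2.21.

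Counted by list in the fit without the library labelled KO 2, 5 of 8 receptor and JAK-STAT genes fell and 1 rose, and 14 of 18 genes of interferon induction fell and 1 (Tbk1) rose. Of all genes, 28.3% fell and 24.5% rose in this fit. Of 43 further interferon-stimulated genes in the table, out of 46 listed, 39 fell and 0 rose. These ran over all 6 libraries from -2.54 for Apol9a to 0.06 for Adar, the RNA-editing enzyme, whose expression was between 182 and 241 CPM in the 6 tumors. Apol9a and Adar stood at -4.94 and 0.18 without the library labelled KO 2. All 16 GTPase genes of the Gbp and Irg families, which respond mainly to interferon gamma, fell in that fit, with log2 fold changes over all 6 libraries from -1.90 for Gbp3 to -0.70 for Gbp8, which stood at -4.53 and -3.12 without the library labelled KO 2. So did all 10 genes of MHC class I and peptide loading, with values over all 6 libraries from -1.04 for B2m to -0.53 for Psmb10, and of -2.77 and -1.48 without it. Among receptor and JAK-STAT genes the feedback inhibitor Socs3 was lowest over all 6 libraries, at -1.59 (-2.87 without the library labelled KO 2), and Jak1 highest. Over all 6 libraries none of these genes was called by edgeR's quasi-likelihood test, against 0% of all genes. At an unadjusted p under 0.05 by that test, 3 of the 18 genes of interferon induction were lower and 1 was higher. Of the 43 further interferon-stimulated genes 3 were lower, and the GTPase, MHC class I and receptor lists had 0. Of all genes, 11.9% were lower and 2462 of 16166 higher at this threshold.

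In the library labelled KO 2 these lists differed in their medians, while their ranges overlapped that of the 34 genes. Its CPM divided by the mean of the WT tumors had a median of 0.815 over the 34 genes, with a range from 0.509 for Oas2 to 1.22 for Stat2, and was under 1 for 29 of the 34. The median was 0.882 over the further interferon-stimulated genes, 1.08 over the Gbp and Irg genes, where 7 of 16 were under the WT mean, and 1.41 over MHC class I, where 10 of 10 lay above the WT range. The ranges of these 3 lists were 0.454 to 1.57, 0.696 to 1.64 and 1.19 to 1.82. Microglia and macrophage markers had a median of 1.33, with 11 of 14 above the WT range, and proliferating cell genes a median of 0.769, with 10 of 10 under the WT mean. A single library gives no replicate check of these ratios. The share of all genes under the WT mean or above the WT range in this library was not computed, so these counts have no background beside them.

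**Figure D4:**
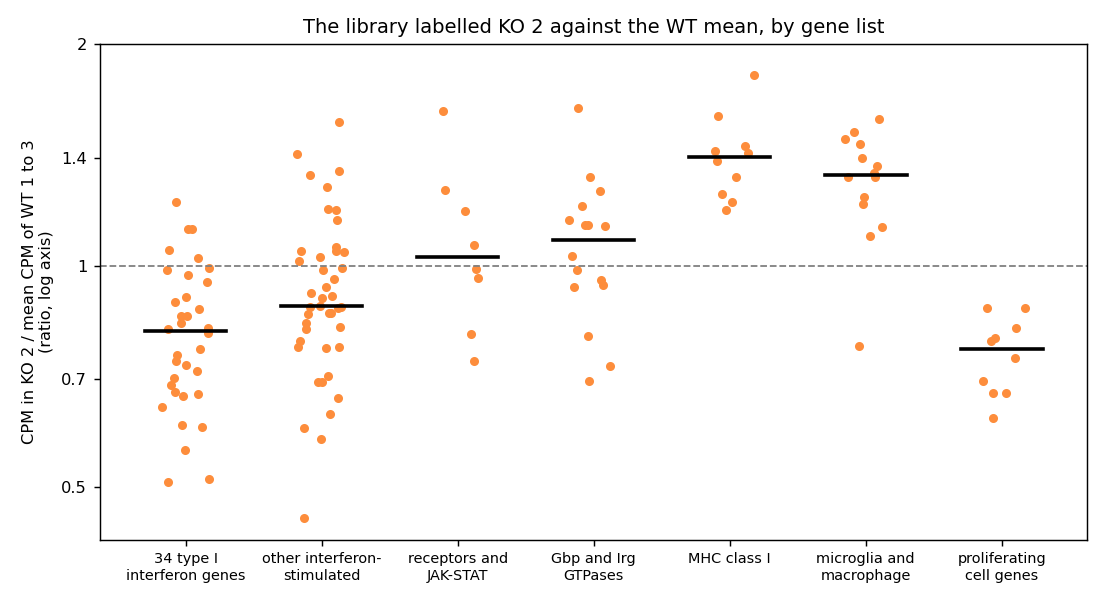
CPM in the library labelled KO 2 divided by the mean CPM of the WT tumors, 1 point per gene, on a log axis, with black lines at the median of each list. The 34 type I interferon-stimulated genes have a median of 0.815 and MHC class I genes one of 1.41, with the dashed line at equal expression.

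Proliferating cell genes followed the 34 genes across libraries, and neuron markers went the opposite way. Summed over the 34 genes, expression was 1979, 3245 and 2948 CPM in WT 1 to 3, and 418, 2269 and 292 CPM in KO 1 to 3. Summed over 10 proliferating cell genes, led by Top2a, it was 1092, 1948 and 1876 CPM in WT tumors and 113, 1214 and 30.1 CPM in KO tumors, the same order of libraries. Summed over 10 neuron markers, led by Camk2a, it was 5139, 1707 and 3087 CPM in WT tumors and 11639, 4382 and 14118 CPM in KO tumors, the reverse order of libraries. All 10 neuron markers were highest among WT tumors in WT 1, where all 34 interferon-stimulated genes were lowest. The part of these shifts in the result was not tested.

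Microglia and macrophage markers varied less between libraries than the 34 genes did. Summed over 14 microglia and macrophage markers, expression was 1409, 1411 and 1340 CPM in WT tumors and 883, 1843 and 777 CPM in KO 1 to 3, and none of the 14 was at 0 in any library. The median over genes of CPM relative to the WT mean was 0.625 in KO 1 and 0.545 in KO 3 for these markers, whereas for the 34 genes it was 0.125 and 0.0634. For 7 T and NK cell markers in the table, of 8 listed, it was 0.210 and 0.0866, with sums between 5.62 and 41.4 CPM over the 6 tumors. For 4 of 5 plasmacytoid dendritic cell markers it was 1.38 and 1.44, for 8 endothelial cell markers 0.994 and 0.780, for 6 myelinating oligodendrocyte markers 3.13 and 1.62, and for 6 astrocyte markers 1.38 and 1.32. Some of these medians cover genes of opposite direction. Without the library labelled KO 2, fold changes were negative for 2 and positive for 2 plasmacytoid dendritic cell markers. They were negative for 5 and positive for 3 endothelial cell markers, and negative for 2 and positive for 4 astrocyte markers. For T and NK cell markers they were negative for 6 and positive for 1, Cd4. In KO 1, Cd4 held 22.9 CPM of the summed 26.4 CPM of these markers. In the fit without the library labelled KO 2, 9 of the 14 microglia and macrophage markers fell and 1 rose (P2ry12), and none of these changes exceeded 4-fold.

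**Figure D5:**
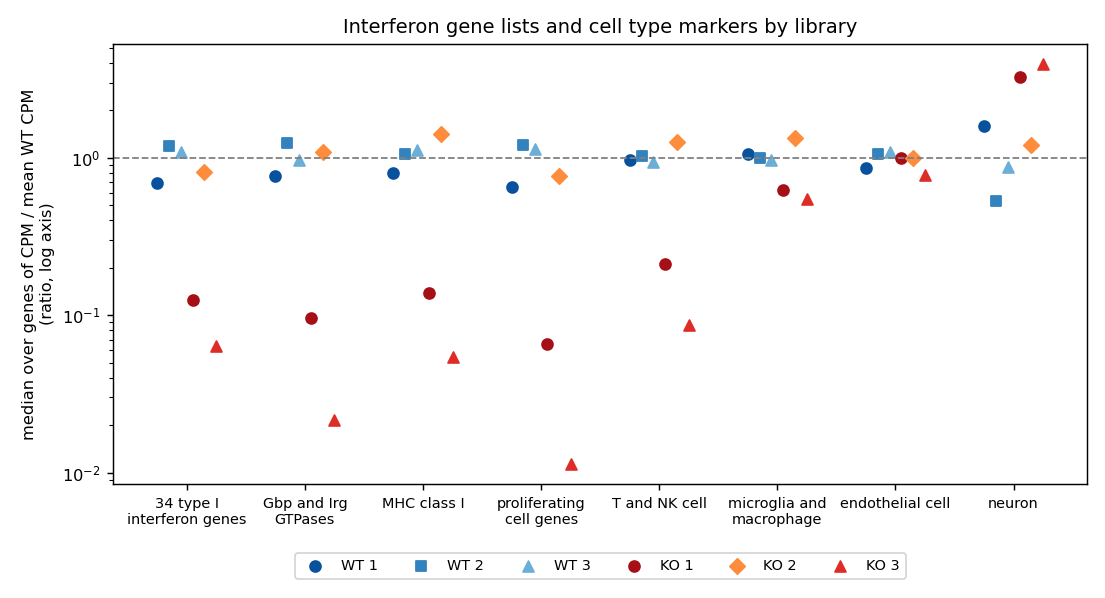
Median over the genes of each list of CPM divided by the WT mean, by library, on a log axis, with 1 point per library. In KO 1 and KO 3 the 34 interferon-stimulated genes lie at 0.125 and 0.0634, proliferating cell genes at 0.0656 and 0.0113, microglia and macrophage markers at 0.625 and 0.545 and neuron markers at 3.24 and 3.94.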

How the data were processed

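Members and gene lists were chosen with earlier results of these data known. Per the labels, libraries were made from total RNA of tumor tissue with the NEBNext Ultra RNA kit, processed with CASAVA 1.8.2 and edgeR and set on mm10, whereas the methods of the study name the Ovation Ultralow kit, HTSeq and hg38, and its reporting summary names STAR. The authors deposited whole-number counts of uniquely mapped reads per gene, without normalization, and FPKM, which equal counts over gene length and library total. Genes with reads in fewer than 4 libraries, or with no library reaching 5 reads, are absent from the table and not assessed. The authors also deposited a normalized signal, made by scaling counts with 1 factor per library, and log2 fold changes with p-values and FDR of their own comparison, none of which was used.

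The model was fitted to counts by edgeR 4.0.16 under R 4.3.3 (filterByExpr with minimum count 10 and minimum total 15, TMM factors, quasi-likelihood F test, Benjamini-Hochberg adjustment over all genes tested, called at an adjusted p under 0.05). Standard errors were derived from each fold change and its F statistic. Named were all 34 genes, Esm1, Ifnar1, Ifnar2, Jak1, Tyk2, Irf9 and Irf7, ligands in the table, the lowest and highest gene of other interferon lists and the most abundant marker of a list. P2ry12 was named after its value was seen. Some items under this rule are not reported here. Alternatives tried were the replicate number as a block, omission of each library, upper quartile or RLE scaling, no filter, a mean of at least 10 counts, DESeq2 1.42.0, edgeR's exact test and limma-voom (limma 3.58.1), and, chosen after seeing the data, these 3 tools without the library labelled KO 2. A fit to WT 1, WT 2, KO 1 and KO 3 alone was also tried. The labels state no pairing by replicate number, and the main fit used none. The pipeline was tested on simulated data. Depth sets the precision: 1 read was worth at most 0.0570 CPM. Figures were drawn with matplotlib 3.10.9.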

Additional observations from a re-analysis of the deposited data

How the results depend on the processing

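The count of the 34 genes called lower was 0 with all 6 libraries and depended on the library labelled KO 2. Without it 34 were called lower by edgeR's quasi-likelihood test and, chosen after seeing the data, 34 by DESeq2 (28.4% of all genes were called lower), 34 by the exact test (28.5%) and 34 by limma-voom (27.9%), the last with a median log2 fold change of -3.48. With WT 1, WT 2, KO 1 and KO 3 alone 33 were called lower. Leaving out each library in turn gave counts from 0 to 34 lower and from 0 to 0 higher, and medians from -3.45 to -1.10. No scaling or filter changed a call or a direction of the 34. With the replicate number as a block the median was -2.44 and 0 were called, with a smallest adjusted p of 0.0679. Deviations of same-numbered libraries from their group means correlated at 0.629, 0.668 and -0.273, and KO 3 correlated best with WT 1. The first principal component held 86.9% of the variance, so these values cannot show whether the numbers mark pairs or batches. In the settings that kept the library labelled KO 2, the smallest adjusted p among the 34 ran from 0.0679 to 0.462. Depth limits Oas3, with 2 reads in KO 3, most; the other 33 genes had at least 5 reads in every library.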
